A study of Homo sapiens with 2 samples.

Results

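The 10 genes described here are the retinoic acid receptors RARA, RARB and RARG and genes that carry, make, reduce or degrade retinoids, namely CRABP2, STRA6, RDH10, DHRS9, DHRS3, CYP26A1 and CYP26B1. They were chosen by name, and every probe set that the platform annotation assigns to one of them alone was used, 28 probe sets of the 41097 that carry a single gene name, for 10 of 19775 genes. HT-29, a human colorectal adenocarcinoma cell line, had been grown as spheroids or as monolayer. Spheroids were formed from monolayer cells on low-adhesion plates and harvested on day 5. Their stem cell media, based on DMEM/F-12, held the growth factors EGF and FGF and the supplement B27, with no serum listed. The monolayer was kept in DMEM/F-12 too, with 10% fetal bovine serum. RNA of each culture was hybridised to 1 Affymetrix Human Genome U133 Plus 2.0 array. Growth form and medium differed together and cannot be told apart. B27 contains a retinoid unless a version without vitamin A is used, the labels do not say which was used, and serum carries retinol of its own.

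Retinol is taken into cells, stored as esters, and oxidised in successive steps through retinal to retinoic acid. Retinoic acid binds the retinoic acid receptors, which sit on DNA as partners of the RXR receptors and switch target genes on or off. Among the targets are genes that limit the signal itself, such as the CYP26 hydroxylases, which break retinoic acid down, and DHRS3, which returns retinal to retinol. In the colon, retinoic acid is known for promoting differentiation of epithelial cells, and RARB is known as a gene that is often silent in tumour cells.

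Each array gives a MAS5 signal per probe set, an intensity on a linear scale with arbitrary units, and signals of different probe sets are not comparable with each other. A signal of 62.7, the median of all signals, was taken as the floor under which a probe set was treated as not above background, since the table holds no detection calls. A higher floor of 84.7, under which lay 95% of 107 probe sets for olfactory receptors, served as a second mark. Differences are log2 of the spheroid signal minus log2 of the monolayer signal after signals under the floor were set to it, and a difference with 1 array under the floor is a bound. With 1 array per condition there was no replicate check and no test, and a lower signal from fewer cells of a kind cannot be told apart from less RNA per cell. The 18 probe sets of the hybridisation spike-ins averaged a log2 difference of -0.25, and 18 of them were dimmer with spheroid RNA. Scaling the arrays to them moved the median over all genes to 0.18, against -0.05 on the scale as deposited.

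The labelled cell type was checked against 12 markers of colon epithelium. The epithelial genes EPCAM, CDH1, KRT8, KRT18 and KRT19 were bright, with signals from 6059 to 22627 on the spheroid array and from 4544 to 29713 on the monolayer array. The intestinal markers CDH17 and LGALS4 were under the floor on both arrays. VIL1 was above it on the monolayer array only, and CDX2, GPA33 and CEACAM5 on the spheroid array only, none with a signal over 105.5. KRT20 had 218.4 on the spheroid array and 99.6 on the monolayer array. Epithelial genes were thus present and most intestinal markers were absent or near the floor. The cause of this was not tested, nor was whether the arrays hold RNA of the labelled line. Over the whole list the summed signal was 76239 in spheroids and 86223 in monolayer. A few bright probe sets dominate these sums, and KRT18 alone held 22627 and 29713. Gene by gene the list leaned the other way. Over the 10 measured genes, 4 of them bounds, the median log2 difference was 0.21, with 6 above 0 and 4 under 0. Of 6 fibroblast markers, COL1A1 was above the floor on both arrays, COL1A2 was above it on the monolayer array only, and the other 4 were under it. The fibroblast list summed to 2174 in spheroids and 1547 in monolayer, of which COL1A1 alone held 1972 and 1370. The 3 leukocyte markers with a probe set summed to 58.3 and 84.7, all under the floor. The 3 endothelial markers summed to 120.2 and 193.8, of which PECAM1 alone was above the floor. The part of these markers in the values of the retinoid genes was not tested.

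No retinoid gene above the floor on both arrays differed by 2-fold in HT-29 spheroids compared to monolayer. The floor was passed on both arrays by 7 of the 10, RARB and STRA6 passed it in spheroids only, and CYP26A1 in neither. Among the 9 with a difference, 0 were at least 2-fold higher in spheroids, where 2.53% of 13183 measured genes were, and 0 were at least 2-fold lower, where 3.08% were. RARB and STRA6 could not reach 2-fold, since their spheroid signals, 70.0 and 76.2, lie little above the floor set for monolayer. Their bounds do not show a difference under 2-fold, so only the 7 could be judged. At these shares a list of this size would hold few such genes, so the counts say nothing particular about the retinoid genes. The lowest differences belonged to RARG, CYP26B1 and DHRS3, at -0.88, -0.87 and -0.62, and the values of RARG lie near the floor. The highest were bounds, 0.28 for STRA6 and 0.16 for RARB. The median over the 9 genes was -0.11, against -0.05 over all measured genes, and turned to 0.13 relative to the spike-ins, where all genes stood at 0.18. Over the 7 above the floor on both arrays, 5 under 0 and 2 above 0, the median was -0.39, against -0.06 over 11555 such genes. That median is the value of RARA, whose probe sets disagree. Of the 28 probe sets, 11 passed the floor on both arrays, 3 on 1 array and 14 on neither. Of the 14 that passed it on at least 1 array, 0 were at least 2-fold higher in spheroids and 0 at least 2-fold lower, against 4.13% and 2.92% of all 30141 such probe sets. The 3 that passed it on 1 array give bounds, which could not reach 2-fold either.

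**Figure D1:**
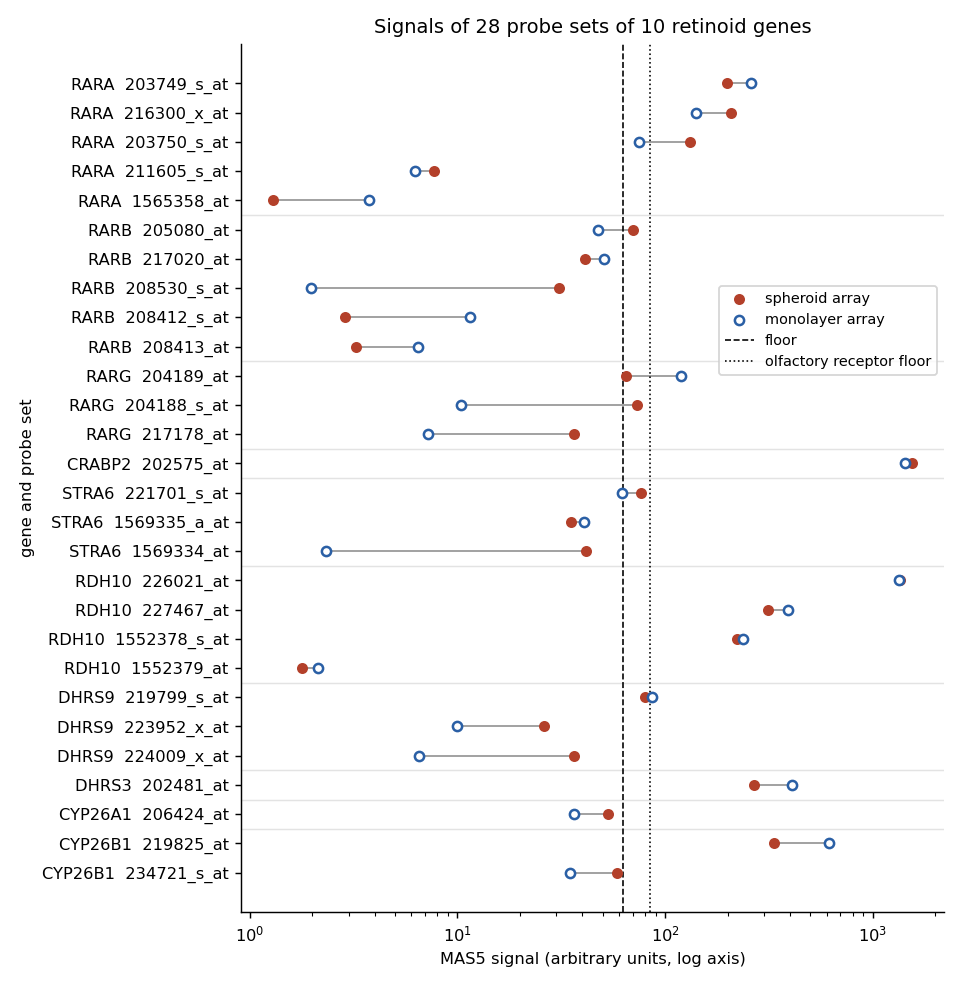
MAS5 signal (arbitrary units, log axis) of each of the 28 probe sets of the 10 retinoid genes on the spheroid array (filled red) and the monolayer array (open blue), with the floor of 62.7 (dashed) and the olfactory receptor floor of 84.7 (dotted). Of the probe sets, 14 have both points left of the dashed line, and the widest gaps lie there, where signals are treated as background.

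The retinoic acid receptors are nuclear receptors that retinoic acid activates. RARA, the receptor found in most tissues, has 5 probe sets. The brightest, 203749_s_at, had a signal of 198.3 in spheroids and 259.5 in monolayer, 1.31-fold lower in spheroids (log2 difference -0.39). The others above the floor went the other way. Probe set 216300_x_at had 207.6 in spheroids and 141.7 in monolayer, a log2 difference of 0.55, and 203750_s_at had 132.0 in spheroids and 74.5 in monolayer, a difference of 0.82. Suffix s marks probe sets whose probes are shared by several transcripts and x those with probes that also match other sequences. The remaining RARA probe sets, 211605_s_at and 1565358_at, were far under the floor, with signals of 7.68 and 1.30 in spheroids and 6.22 and 3.75 in monolayer. The measured RARA probe sets thus ran from -0.39 to 0.82, against an SD of 0.41 among the probe sets within a gene (5506 genes). RARA has no settled direction on these arrays.

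RARG, the receptor known best from skin, has 3 probe sets that also disagree. Probe set 204189_at had 65.0 in spheroids, just above the floor, and 119.9 in monolayer, a log2 difference of -0.88. Of all measured genes 4.33% had a difference as low or lower. Probe set 204188_s_at had 73.1 in spheroids and 10.4 in monolayer, under the floor, so that it was at least 1.17-fold higher in spheroids. The third, 217178_at, had 36.5 in spheroids and 7.21 in monolayer. Since each spheroid signal of RARG lies under 84.7, the size of its difference rests on where the floor is set, and it was -0.50 with the olfactory receptor floor.

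RARB, the receptor whose gene retinoic acid itself induces, passed the floor with 1 of its 5 probe sets, and in spheroids only. Probe set 205080_at had 70.0 in spheroids and 47.5 in monolayer, at least 1.12-fold higher in spheroids. Both signals are under 84.7. The other 4 did not reach the floor on either array, with signals from 2.88 to 41.2 in spheroids and from 1.97 to 50.7 in monolayer. Of these 4, only 208530_s_at was higher in spheroids, at 30.8 against 1.97 in monolayer, and such low signals carry no fold.

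RARB and CYP26A1 are shown with their promoter sequences, because these are the genes of the group whose RefSeq promoter windows hold a complete direct repeat of the receptor motif, and both were dim on these arrays. The receptors bind such repeats together with RXR. Windows from 250 bases before to 50 bases after a gene's start (RefSeq, GRCh38.p14) were searched on both strands for the half-sites AGGTCA or AGTTCA or GGGTCA or GGTTCA in direct repeat with 5, 2 or 1 bases between them. The table holds 24 windows for 9 of the 10 genes, not RDH10. A repeat with 5 bases between was found in 31 of 35116 windows of all genes (0.0883%), among them 1 window of RARB and 1 of CYP26A1. Repeats with 2 or 1 bases between were in 0.0399% and 0.131% of all windows and in 0 of the 24. Single half-sites, which every repeat contains, were in 38.6% of all windows and in 11 of the 24. The repeats read, with the half-sites in capitals, as follows.
RARB: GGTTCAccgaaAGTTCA
CYP26A1: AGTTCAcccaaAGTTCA
The 100 bases before the start hold them as follows, for RARB at chr3:25428163-25428262, plus strand, and for CYP26A1 at chr10:93073793-93073892, plus strand. In CYP26A1 the repeat lies on the opposite strand, so the half-sites read as their reverse complements. Capitals mark only the half-sites of the repeat, and the RARB stretch also holds a GGGTCA outside it, in lower case.
RARB: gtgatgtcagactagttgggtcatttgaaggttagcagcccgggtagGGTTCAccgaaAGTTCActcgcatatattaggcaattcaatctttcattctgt
CYP26A1: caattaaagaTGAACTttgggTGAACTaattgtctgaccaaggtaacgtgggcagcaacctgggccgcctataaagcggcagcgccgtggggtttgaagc
The repeat ends 36 bases before the start in RARB and 73 bases before it in CYP26A1. A match of letters is a description of the window and not evidence of binding in these cells.

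Of the genes that bring retinoids into the cell and to the receptor, CRABP2 showed a small difference and STRA6 gave only a bound. CRABP2, which carries retinoic acid in the cytosol and hands it to the receptors, has a single probe set, 202575_at. Its signal was 1556 in spheroids and 1431 in monolayer, 1.09-fold higher in spheroids (log2 difference 0.12). The quartiles of the difference among 1155 genes of like signal were -0.31 and 0.25, so CRABP2 lay inside the middle range. STRA6, the membrane receptor that takes up retinol from its plasma carrier, was near the floor. Its probe set 221701_s_at had 76.2 in spheroids and 61.8 in monolayer, at least 1.22-fold higher in spheroids, and both signals are under 84.7. The other STRA6 probe sets were under the floor on both arrays, with 35.1 and 41.6 in spheroids and 40.6 and 2.33 in monolayer.

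Of the 3 enzymes of the group that interconvert retinol and retinal, DHRS3 had the lowest difference. RDH10, which oxidises retinol to retinal, was bright and nearly equal on both arrays by its brightest probe set. 226021_at had 1351 in spheroids and 1339 in monolayer, a log2 difference of 0.01. The next, 227467_at, had 313.2 in spheroids and 392.8 in monolayer (-0.33), and 1552378_s_at had 221.1 in spheroids and 238.1 in monolayer (-0.11). The fourth, 1552379_at, was under the floor, at 1.78 in spheroids and 2.12 in monolayer. The sign for RDH10 differs between probe sets and between scalings, and the differences of the 3 measured probe sets span less than the SD of 0.41.

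DHRS9, a short-chain dehydrogenase that can oxidise retinol, had 80.0 in spheroids and 86.5 in monolayer by 219799_s_at, a log2 difference of -0.11 that became 0.13 relative to the spike-ins. Its x probe sets were under the floor, 26.2 and 36.5 in spheroids and 9.92 and 6.56 in monolayer. DHRS3 works in the other direction, reducing retinal to retinol, and is known as a gene that retinoic acid induces. Its only probe set, 202481_at, had 267.2 in spheroids and 410.5 in monolayer, 1.54-fold lower in spheroids (log2 difference -0.62). Of all measured genes 10.4% were as low or lower. Among 1156 genes of like signal the lower quartile was -0.41, and DHRS3 lay under it.

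The CYP26 enzymes hydroxylate retinoic acid and so end its action. CYP26B1 was 1.83-fold lower in spheroids by 219825_at, with signals of 335.9 in spheroids and 613.5 in monolayer (log2 difference -0.87). It was well above both floors on both arrays. Among 1155 genes of like signal the quartiles were -0.39 and 0.26, and 4.59% were at least 2-fold lower, and over all measured genes 4.57% were as low as CYP26B1 or lower. Its other probe set, 234721_s_at, was under the floor on both arrays, at 58.6 in spheroids and 34.8 in monolayer. CYP26A1, the member of the family that is best known for its induction by retinoic acid, had 53.1 in spheroids and 36.5 in monolayer. Its only probe set was thus under the floor on both arrays, and no fold is given.

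**Figure D2:**
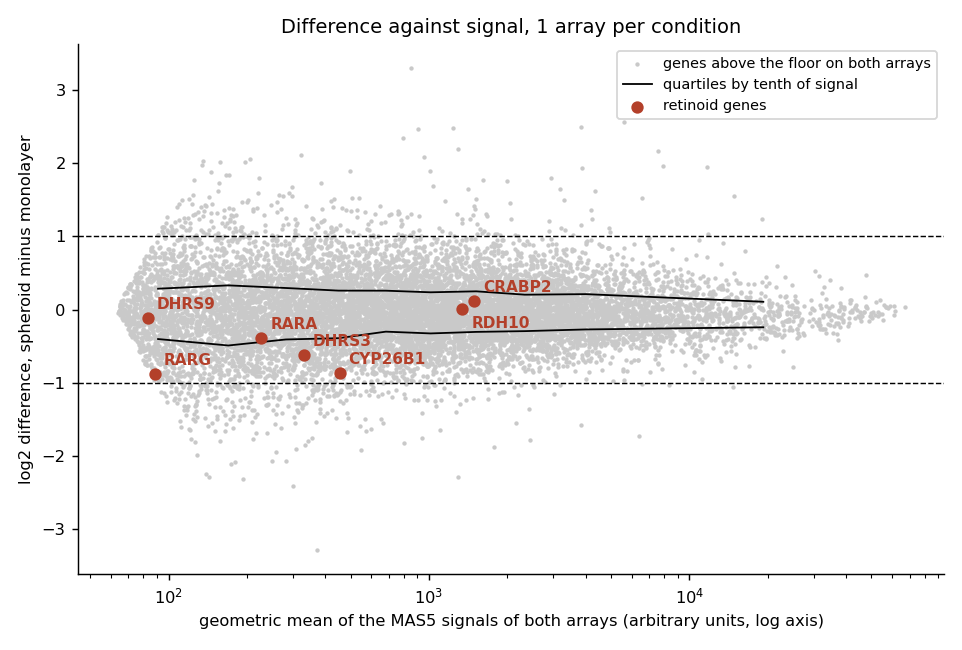
Log2 difference between the spheroid and the monolayer array against the geometric mean of both signals (log axis) for 11555 genes above the floor on both arrays (grey), 1 array per condition, with the quartiles within 10 equal groups of genes by signal (black lines) and 2-fold differences (dashed). RARG, CYP26B1 and DHRS3 lie between the lower quartile and the dashed line at -1, and CRABP2, RDH10, DHRS9 and RARA between the quartiles.

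The genes that keep their direction under every setting that measured them are CYP26B1, DHRS3 and RARG, lower in spheroids, and CRABP2, RARB and STRA6, higher in spheroids. CYP26B1 ranged from -0.95 to -0.62 over 11 other settings of scaling, floor and choice of probe set. DHRS3 ranged from -0.70 to -0.09, the last with a floor at the 75th percentile of all signals, which lies above its spheroid signal. RARG ranged from -0.96 to -0.33 over 10 settings. CRABP2 ranged from 0.04 to 0.37. RARA ran from -0.46 to 0.82, RDH10 from -0.33 to 0.26 and DHRS9 from -0.19 to 0.13. Part of the kept direction was fixed in advance. RARB and STRA6 were above the floor on the spheroid array only, so a floored difference could only be positive. CYP26B1, DHRS3, CRABP2, RARB and STRA6 each have 1 measured probe set, so the median or largest of probe sets could not change them. RARG kept its sign although its probe set 204188_s_at was higher in spheroids. A kept sign over settings of the same 2 arrays is no replicate, and CRABP2 lay within the middle range of all genes.

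**Figure D3:**
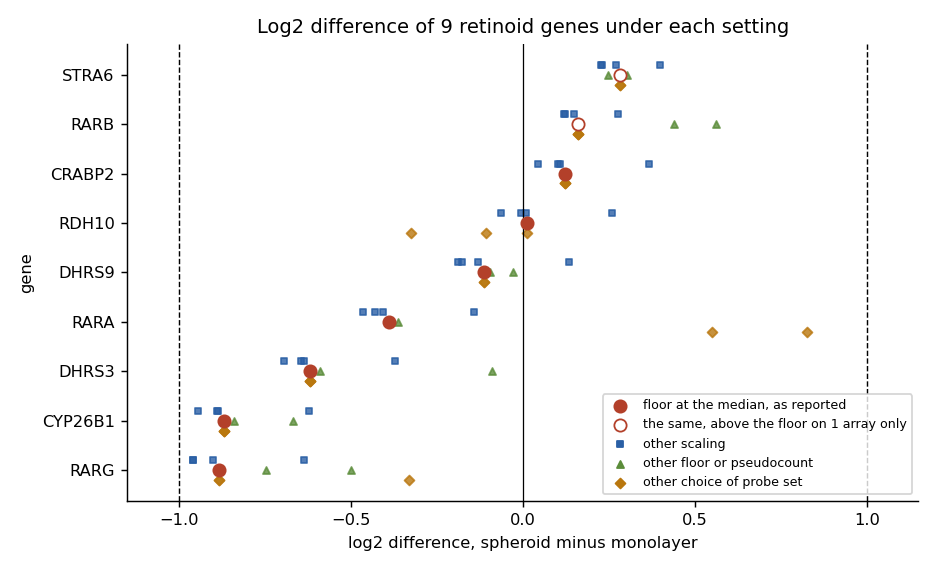
Log2 difference between the spheroid and the monolayer array for the 9 retinoid genes with a measured value (red, open where 1 array was under the floor) and the same under other scalings (blue squares), other floors or a pseudocount (green triangles) and other choices of probe set (brown diamonds), with 2-fold differences dashed. RARA stands at -0.39 as reported and at 0.55 and 0.82 by other choices of probe set, and no point lies beyond a dashed line.

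Further genes of retinoid metabolism were read as 4 lists, whose counts past 2-fold stand against 2.53% of all measured genes higher in spheroids and 3.08% lower, so that counts of 0 to 2 in lists of this size are no result about a list. Of 14 genes of retinoid uptake, binding and storage, 12 had a probe set of their own and 9 were measured, 0 of them past 2-fold in either direction, with a median log2 difference of 0.03. DGAT1, which makes triglycerides and can also esterify retinol, had 447.0 in spheroids and 820.3 in monolayer (-0.88). LRAT, the main retinol esterifying enzyme, had 132.2 in spheroids and 77.3 in monolayer (0.77), and relative to the spike-ins it was past 2-fold. RBP7, a cellular retinol-binding protein, was at -0.42 and the lipid and carotenoid receptor SCARB1 at -0.14, with its other measured probe sets from -0.41 to 1.42.

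Among the oxidoreductases, SDR16C5 and ALDH1A3 were lower in spheroids past 2-fold and RDH5 was higher. Of 25 listed, 21 had a probe set of their own and 15 were measured, 1 of them at least 2-fold higher in spheroids and 2 at least 2-fold lower, with a median of 0.07. SDR16C5, an epidermal retinol dehydrogenase, had 339.2 in spheroids and 1050 in monolayer, 3.09-fold lower in spheroids, by its only probe set. ALDH1A3, which makes retinoic acid from retinal, had 2221 in spheroids and 6652 in monolayer, a log2 difference of -1.58. Both genes were well above 84.7 on both arrays. The related ALDH1A1 was under the floor on both arrays and ALDH1A2 above it on the spheroid array only, with 65.3 against 7.57 in monolayer. RDH5, a retinol dehydrogenase known from the eye, had 195.4 in spheroids and 79.4 in monolayer, 2.46-fold higher, where the monolayer signal is under 84.7. ADH4, an alcohol dehydrogenase that can oxidise retinol, was at -0.84, with 84.8 in spheroids and 152.1 in monolayer by the only one of its probe sets to pass the floor. SDR16C5 and ALDH1A3 stayed lower in spheroids past 2-fold under each of the scalings and floors, and the alternative threshold of 3-fold kept SDR16C5 only. Each of these genes has 1 measured probe set, with no s or x suffix, so the choices of probe set could not change them. The other ALDH1A3 probe set was under the floor on both arrays, at 23.8 in spheroids and 11.6 in monolayer.

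Of 16 receptor partners and cofactors, 12 had a probe set of their own and 9 were measured, 0 of them past 2-fold, with a median of -0.14 that became 0.09 relative to the spike-ins. RXRB, a DNA-binding partner of the retinoic acid receptors, had 595.2 in spheroids and 896.9 in monolayer (-0.59). RXRA, another partner, had 691.5 in spheroids and 761.7 in monolayer (-0.14), and RXRG was under the floor on both arrays. The coactivator NCOA2 was at 0.49, the arginine methyltransferase PRMT1 at -0.30 and the lipid receptor PPARD at -0.26, with another PPARD probe set at 0.46.

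Of 26 genes known to respond to retinoic acid in other cells, 20 had a probe set of their own and 14 were measured, 1 of them at least 2-fold higher in spheroids and 0 at least 2-fold lower. Their median was 0.05, with 8 genes above 0 and 6 under 0. BHLHE40, a clock-linked repressor that hypoxia also induces, had 7623 in spheroids and 2465 in monolayer, 3.09-fold higher, and its other probe set was at 1.14. ELF3, an epithelial transcription factor, had 738.2 in spheroids and 440.9 in monolayer (0.74), and its probe sets ran from 0.74 to 1.41. GPRC5A, a membrane receptor first described as induced by retinoic acid, had 1743 in spheroids and 2884 in monolayer (-0.73), and its other measured probe set was at -0.85. The adhesion molecule ICAM1 was at -0.80 by its brightest probe set by mean signal and at 0.06 by another. RARRES1 and RARRES2, named for their response to retinoids, and the intestinal factor CDX1 were under the floor on both arrays.

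**Figure D4:**
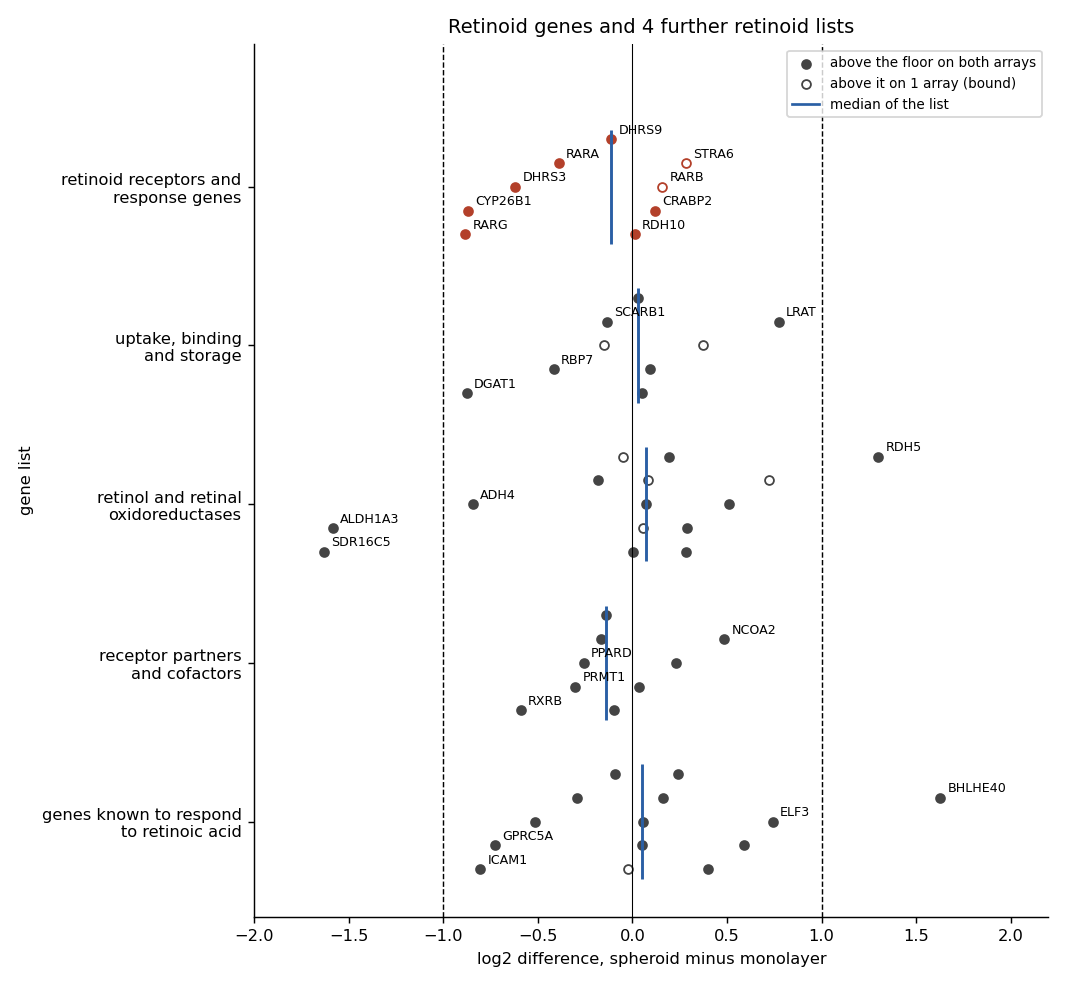
Log2 difference between the spheroid and the monolayer array of the retinoid genes (red) and of 4 further lists (grey), 1 dot per gene, open where 1 array was under the floor, with the median of each list (blue) and 2-fold differences (dashed). SDR16C5 and ALDH1A3 lie left of the dashed line at -1, RDH5 and BHLHE40 right of the line at 1, and the medians of all 5 lists lie between -0.14 and 0.07.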

How the data were processed

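The deposited values are intensities that the authors computed as MAS5 signals with Affymetrix Expression Console (version not given in the sources used here), on a linear scale, for 54675 probe sets on 2 arrays, both with a trimmed mean of 500.1. The methods speak of duplicates, and 1 array of each condition was used here. The number of arrays limits the precision, and no test was run.

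Python 3.11.15, numpy 2.4.6, pandas 2.3.3 and matplotlib 3.10.9 were used. Probe sets were named through the platform annotation, 41097 to 1 gene, 1801 to several, which were not used, and 11777 unnamed, and 41043 of the single names were matched to RefSeq symbols. A floor at the 50th percentile of all signals was applied before log2 was taken. Where a gene had several probe sets, the brightest by mean log2 signal stood for it. Calls were made at 2-fold, which the methods also use. The computation was tested on simulated data, with differences put only into genes well above the floor, so the test does not cover genes near it. The members and the lists were chosen with earlier results of these data known. Beside the 10 members, the named genes are up to 4 in each list with the largest difference, taken from those that passed the floor on each array, and any other past 2-fold. RXRA, RXRG, ALDH1A1, ALDH1A2, RARRES1, RARRES2 and CDX1 were added for completeness, with their values known. Listed genes with no probe set of their own were not analysed here. Alternatives were 4 scalings (median, quantile, GAPDH, hybridisation spike-ins), no floor, 2 higher floors, a pseudocount of 15.9, 3 choices of probe set (the median, the largest difference, no s or x suffix) and a 3-fold threshold.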

Additional observations from a re-analysis of the deposited data

How the results depend on the processing

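With 1 array per condition the limits are the missing replicates and the signal over background. Under each of 12 alternatives 0 retinoid genes passed the threshold in either direction. Part of this was fixed in advance. Starting from 0 such genes, the 3-fold threshold and the higher floors could not give more. The choices of probe set could not give another value for genes with 1 measured probe set. The median log2 difference over the retinoid genes, -0.11 as reported, changed sign under 1 alternative. It was -0.19 with median scaling, -0.18 with quantile normalization, -0.13 relative to GAPDH, 0.13 relative to the spike-ins, -0.05 where no floor was set, -0.04 over 4 genes with a 75th percentile floor, -0.39 over 7 genes with the olfactory receptor floor and -0.30 over 6 genes without s and x probe sets. Single genes moved by more than 0.41, the SD between probe sets of a gene, in 4 cases, RARA to 0.55 with the median of its probe sets and to 0.82 with the largest difference, RARG to -0.33 with the median, and DHRS3 to -0.09 with the floor at the 75th percentile, above its spheroid signal. Over all genes 334 passed 2-fold upward and 406 downward as reported, and 700 and 189 relative to the spike-ins, 2476 and 2502 where no floor was set, 100 and 74 with the highest floor, 580 and 648 with the pseudocount, 791 and 716 with the largest difference and 52 and 60 at 3-fold. BHLHE40 has only s probe sets and RDH5 was under the 75th percentile on both arrays, so those settings gave them no value. Other listed genes passed 2-fold downward under some settings, TTR, RARRES1, RARRES2 and MEIS1 where no floor was set, TTR also with the pseudocount, and SMAD3 with the largest difference. Upward, RDH8, ADH1C, ALDH1A2, RORA and HIC1 passed it where no floor was set, and RDH8 and ALDH1A2 also with the pseudocount. LRAT did so relative to the spike-ins, SCARB1 and ELF3 with the largest difference, and ELF3 also without s and x probe sets. No paired analysis was possible because each condition has 1 array.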
